A study of Mus musculus with 2 samples.

Results

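At embryonic day (E) 16.5, 60 of 16213 single cells of the embryonic mouse cortex carried the transcripts that mark Cajal-Retzius cells and none of the GABA-synthesis transcripts. These cells were chosen by a rule on UMIs (unique molecular identifiers, which tag each captured mRNA molecule). A barcode had to hold 1500 to 60000 UMIs, of which under 10% were mitochondrial. It had to hold at least 2 Reln UMIs and at least 1 UMI of Trp73, Lhx1 or Lhx5, with Gad1, Gad2, Lhx6, Mki67 and Top2a all at 0. The rule thereby read Reln, Trp73, Lhx1, Lhx5 and the 5 barred genes in the same cells, and the values of these genes are given as a description without a test.

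Cajal-Retzius cells are early-born neurons of the marginal zone, the outermost layer of the developing cortex. They arise mainly at the edges of the pallium, among them the cortical hem, the septum and the ventral pallium, and spread under the pia. They are known for secreting reelin, an extracellular glycoprotein that binds Vldlr and Lrp8 on migrating neurons, acts through the adaptor Dab1 and is needed for the layering of the cortex. Most of them die after birth.

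The cells came from 2 single-cell RNA libraries of wild-type (WT) control embryos of EomesDot, an Eomes-Cre line, taken at E16.5. Both libraries belong to the same WT group, so there was no treated group. The cortex was dissociated with papain and poly(A) RNA was captured with the 10x Genomics 3′ v3.1 droplet kit. The labels do not say whether a library holds 1 embryo or several, and the numbers 1 and 2 only name the libraries. The p-values below rest only on how far differences between groups of cells varied between these libraries. That spread was estimated over all the groups in a fit, after the overall difference between the libraries was taken out.

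Replicate 1 gave 21 such cells of 5966 (0.352%, exact 95% binomial interval 0.218% to 0.538%) and replicate 2 gave 39 of 10247 (0.381%, 0.271% to 0.52%). The mean share was 0.366% ± 0.0202 (SD, n = 2), and the intervals overlapped. Intervals and limits here cover counting error only. The deposited tables held 46398156 and 64324236 UMIs over 9049 and 13556 barcodes. The libraries shared 40 barcode sequences, none of them a chosen cell. The chosen cells had a median of 5115 UMIs in replicate 1 (2047 to 22519) and 8364 in replicate 2 (2707 to 23908), with median mitochondrial shares of 6.39% and 4.59%. Summed over cells they gave 171702 and 332171 UMIs. Among them 3 and 5 cells fell within the top doublet scores of their libraries, a set of 432 of the 5966 and 1111 of the 10247 cells.

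Reln encodes reelin. Trp73 encodes a p53-family transcription factor that is known in Cajal-Retzius cells of the hem and septum, and Lhx1 and Lhx5 encode LIM homeodomain transcription factors. The promoter windows of Reln, Trp73 and Lhx1, from 250 bases before to 50 after an annotated start, are shown because these genes defined the cells. Those of Ebf3, an early B-cell factor family gene, and Nhlh2, a basic helix-loop-helix gene, are shown because both stood well above their level in excitatory neurons without having been used to choose the cells. All windows are RefSeq sequence on GRCm38.p6, written 5′ to 3′ on the strand of the gene. Capitals mark 3 motifs that were searched in every window: TAATTA, the core bound by many LIM homeodomain factors; CCCNNGGG, the core bound by early B-cell factors; and CAGCTG, one of the E-boxes bound by basic helix-loop-helix factors. Each is its own reverse complement, so that one search covers both strands.
Reln, chr5:22344656-22344955, minus strand: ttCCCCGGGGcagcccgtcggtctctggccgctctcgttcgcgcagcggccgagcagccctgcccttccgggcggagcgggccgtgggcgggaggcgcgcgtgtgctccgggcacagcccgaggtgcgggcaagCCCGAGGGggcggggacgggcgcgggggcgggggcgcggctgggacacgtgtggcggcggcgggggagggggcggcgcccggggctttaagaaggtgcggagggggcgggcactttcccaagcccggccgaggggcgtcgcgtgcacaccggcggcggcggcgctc
Trp73, upstream start, chr4:154139826-154140125, minus strand: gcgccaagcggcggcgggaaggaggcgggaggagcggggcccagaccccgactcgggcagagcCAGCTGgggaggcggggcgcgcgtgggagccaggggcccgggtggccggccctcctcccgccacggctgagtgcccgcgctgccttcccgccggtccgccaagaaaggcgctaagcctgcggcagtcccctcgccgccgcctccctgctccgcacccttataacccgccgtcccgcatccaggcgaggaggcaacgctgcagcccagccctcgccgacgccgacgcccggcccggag
Trp73, other start, chr4:154097124-154097423, minus strand: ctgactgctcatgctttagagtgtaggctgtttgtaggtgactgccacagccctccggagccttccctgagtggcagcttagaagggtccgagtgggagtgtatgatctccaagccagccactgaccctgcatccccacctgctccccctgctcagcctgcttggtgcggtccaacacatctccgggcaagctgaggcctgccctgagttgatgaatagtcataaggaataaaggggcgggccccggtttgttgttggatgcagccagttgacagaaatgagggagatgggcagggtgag
Lhx1, chr11:84525485-84525784, minus strand: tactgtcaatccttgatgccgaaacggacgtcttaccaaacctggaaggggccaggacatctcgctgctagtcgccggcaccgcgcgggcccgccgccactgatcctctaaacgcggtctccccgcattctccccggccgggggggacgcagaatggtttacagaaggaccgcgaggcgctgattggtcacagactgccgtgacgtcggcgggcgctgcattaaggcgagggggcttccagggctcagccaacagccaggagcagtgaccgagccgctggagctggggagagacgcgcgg
Ebf3, chr7:137314396-137314695, minus strand: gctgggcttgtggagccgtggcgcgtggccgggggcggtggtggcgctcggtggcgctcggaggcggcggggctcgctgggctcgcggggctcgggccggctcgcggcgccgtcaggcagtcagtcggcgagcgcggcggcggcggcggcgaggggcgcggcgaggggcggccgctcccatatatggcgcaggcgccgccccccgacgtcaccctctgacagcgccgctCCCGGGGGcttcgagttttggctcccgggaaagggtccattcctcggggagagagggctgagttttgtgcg
Nhlh2, chr3:102009895-102010194, plus strand: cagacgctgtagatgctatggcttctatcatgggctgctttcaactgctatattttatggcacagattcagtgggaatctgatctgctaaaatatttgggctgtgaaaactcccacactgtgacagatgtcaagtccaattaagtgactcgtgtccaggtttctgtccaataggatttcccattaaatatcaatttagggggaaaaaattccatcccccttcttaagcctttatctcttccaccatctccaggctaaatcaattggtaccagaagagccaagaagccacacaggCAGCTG

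The Reln window held CCCNNGGG starting 248 and 116 bases before the start, and 47 CpG dinucleotides. The upstream Trp73 window held CAGCTG starting at -187 and 39 CpG dinucleotides, whereas the other Trp73 window held none of the motifs and 6 CpG dinucleotides. The kit reads the 3′ end of transcripts, so these counts do not tell which start was used. The Lhx1 window held none of the motifs, the Ebf3 window held CCCNNGGG at -21 and the Nhlh2 window held CAGCTG at 45 within the transcript. The Ebf3 window lies inside the annotated span of the gene, chr7:137193671-137322805. Over all 32851 windows, TAATTA occurred in 5.29%, CCCNNGGG in 13.7% and CAGCTG in 16.3%. A match is a description of the letters, not a binding site.

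The chosen cells lay close to the rule in few cases. At least 2 Reln UMIs were found in 534 cells, of which 77 also held a UMI of Trp73, Lhx1 or Lhx5. Of these 77 cells, 10 held a Gad1 or Gad2 UMI, 2 an Lhx6 UMI, 2 an Mki67 UMI and 5 a Top2a UMI. Exactly 2 Reln UMIs were found in 4 chosen cells and exactly 3 in 2, whereas 5 cells, all in replicate 1, met the rest of the rule with 1 Reln UMI and 44 met it with none. All 3 factors were detected in 25 of the 60 cells, a pair of them in 25 and a single one in 10, and 3 cells rested on 1 factor UMI in all. Trp73 was detected in 50 cells, Lhx1 in 46 and Lhx5 in 39.

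The label was checked against genes that the rule did not read. Of 16 Cajal-Retzius markers from the literature (Calb2, Ndnf, Cxcr4, Nhlh1, Nhlh2, Ebf1, Ebf2, Ebf3, Lhx9, Barhl2, Tbr1, Eomes, Cacna2d2, Snhg11, Car10 and Slc17a6), a chosen cell held a median of 7 in replicate 1 (3 to 12) and 8 in replicate 2 (0 to 13). At least 3 of them were detected in 57 of the 60 cells. The same held for 26 of 243 Reln-positive GABAergic cells, 228 of 4402 excitatory neurons, 34 of 96 other Reln-positive cells, 243 of 584 intermediate progenitors and 0 of 312 radial glia. After each cell was thinned to 1500 UMIs, the shares were 71.4% and 74.4% of the chosen cells against 0.926% and 0.741% of the Reln-positive GABAergic cells and 0.181% and 0.255% of the excitatory neurons. They were 14.9% and 4.08% of the other Reln-positive cells and 4.51% and 5.0% of the intermediate progenitors. The marker Eomes did not follow the label: 1 UMI was found in 1 of the 60 cells. Eomes was also a gate gene of other classes, required in intermediate progenitors and barred in excitatory neurons and radial glia. Their gates thus fixed part of their marker counts.

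These comparison classes were gated in the same libraries on a few genes. Reln-positive GABAergic cells (108 and 135) held at least 2 Reln and at least 2 Gad UMIs, without Mki67 or Top2a. Other Reln-positive cells (47 and 49) held at least 2 Reln UMIs and none of the 3 factors or the barred genes. Excitatory neurons (1661 and 2741) held at least 2 Neurod6 UMIs and none of Reln, Eomes or the barred genes. Differences are therefore between gated cells, and no difference in a gate gene was tested. In every class, the UMIs of a library were summed over its cells and are given as CPM, the gene's share of that sum scaled to 1000000 UMIs, replicate 1 first.

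Reln stood at 5422 and 4573 CPM in the chosen cells, against 726 and 826 CPM in Reln-positive GABAergic cells and 520 and 656 CPM in the other Reln-positive cells. Trp73 stood at 332 and 253 CPM, Lhx1 at 262 and 271 CPM and Lhx5 at 151 and 138.5 CPM. In the Reln-positive GABAergic cells, which the gate left free to hold the factors, Trp73 was at 0 of 108 and 0 of 135 cells, which allows shares of up to 2.78% and 2.22%, Lhx1 at 0 and 7.07 CPM and Lhx5 at 4 and 1.18 CPM. Both libraries gave the same order for Reln, without overlap between the classes. Cells that were not chosen for these genes gave the background. A Reln UMI was found in 2.34% and 3.62% of erythroid cells at medians of 3237 and 3761 UMIs, and in 5.36% and 4.16% of excitatory neurons gated without regard to Reln at medians of 7303 and 6017 UMIs. A Trp73 UMI was found in none of 128 and 221 erythroid cells.

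The chosen cells varied widely among themselves. Reln ran from 3.12 to 133.5 UMIs per 10000 UMIs of the cell, with a median of 42.3 and nearly equal medians in the libraries (42.6 and 42.1). Ndnf, which encodes a secreted protein, was detected in 42 of 60 cells, Ebf3 in 51, Cacna2d2, an auxiliary calcium channel subunit, in 50, Nhlh2 in 42, Calb2, which encodes calretinin, in 28, and Ebf2 in 17. Across the 60 cells, Reln per 10000 UMIs went with Ndnf (Pearson r = 0.65, Spearman rho = 0.69) and with Cacna2d2 (r = 0.59, rho = 0.68). Pooled values were r = 0.41 and rho = 0.45 for Nhlh2 and r = 0.35 and rho = 0.34 for Trp73. The libraries were alike for Ndnf (r = 0.70 in replicate 1 and 0.63 in replicate 2) and Trp73 (0.37 and 0.29), but differed for Cacna2d2 (0.34 and 0.76) and Nhlh2 (0.13 and 0.62). Lhx1 (r = -0.09, rho = -0.15) and Ebf3 (r = -0.21, rho = -0.09) lay near zero or below. These are descriptions over cells of 2 libraries that share their suspension and library preparation, and depth per cell went little with Reln (r = 0.08, rho = 0.13).

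**Figure D1:**
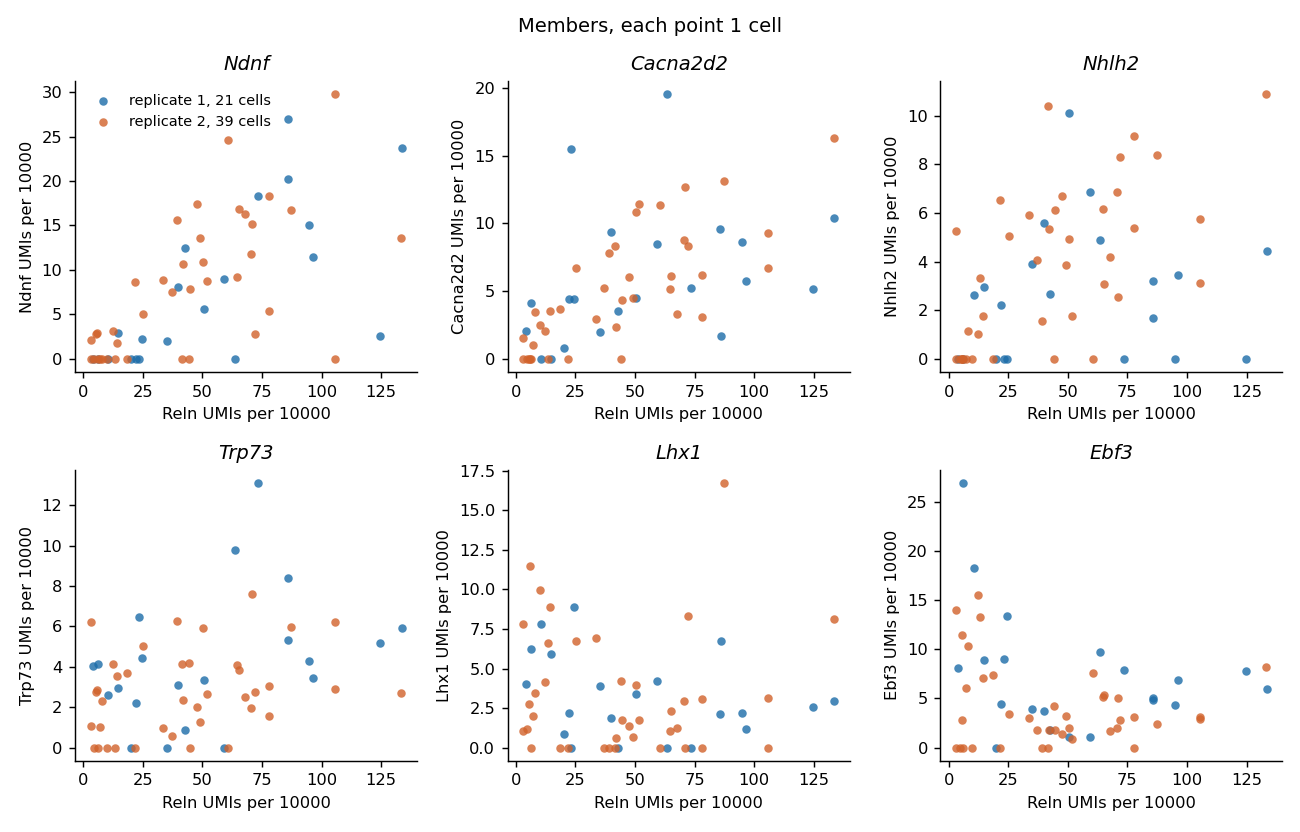
Each point is 1 of the 60 chosen cells, with Reln UMIs per 10000 on the x axis and the named gene's UMIs per 10000 on the y axis, in blue for replicate 1 (21 cells) and orange for replicate 2 (39 cells). Ndnf is low or absent where Reln is low, Cacna2d2 is less so (12 of the 20 cells in the lowest Reln group held it), and the highest Ebf3 values, up to 26.9 per 10000, lie among cells of low Reln.

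To describe this spread, the cells of each library were ordered by Reln per 10000 UMIs and cut into groups of equal size (7 cells each in replicate 1 and 13 in replicate 2, thus 20 cells a group). The genes named here were picked after their values were seen, for the largest ratio between the lowest and the highest group that both libraries shared, and so carry no test. Ndnf stood at 24.3 and 96.2 CPM in the lowest-Reln group, at 833 and 999 CPM in the middle one and at 1811 and 1488 CPM in the highest. Kcnip4, a modulator of A-type potassium channels, went from 24.3 and 48.1 CPM to 915 and 931 CPM, and Cntn5, a contactin cell adhesion molecule, from 24.3 and 48.1 CPM to 858 and 896 CPM. Cxcl12, the chemokine that attracts migrating interneurons, stood at 0 and 36.1 CPM in the lowest group and at 114 and 374 CPM in the highest, detected in 2 and 10 of 20 cells. Slc24a2, a sodium/calcium exchanger, was detected in 1, 13 and 18 of 20 cells from the lowest to the highest group. Car10, a carbonic anhydrase-related protein gene of the marker list, was detected in 1, 14 and 15 cells. Of other markers on that list, Calb2 was detected in 2, 13 and 13 cells, Nhlh2 in 8, 18 and 16 and Cacna2d2 in 12, 18 and 20. Ebf3 and Snhg11 (15, 17 and 19 cells each) and Tbr1 (11, 14 and 13) changed less. Car10 and these other markers were not picked by the ratio above.

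The lowest-Reln group carried another set of transcripts. Sdk1, a sidekick adhesion molecule, stood at 680 and 601 CPM there and at 57.2 and 0 CPM in the highest group, detected in 17 and 3 of 20 cells. Sorcs3, a sortilin-family receptor, stood at 267 and 734 CPM against 0 and 8.7 CPM. Cadm2, a synaptic cell adhesion molecule, stood at 1432 and 1215 CPM against 133 and 131 CPM, in 17, 8 and 9 cells from the lowest to the highest group. For comparison, excitatory neurons held Cadm2 at 1700 and 1530 CPM but Sorcs3 at 7.51 and 10.1 CPM. In Ptprk, 1 cell held 36.9% of all the chosen cells' UMIs, and in the other genes picked for this order and named here a single cell held at most 22.2%.

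Of the rule factors, Trp73 stood at 291 and 204 CPM in the lowest and at 591 and 313 CPM in the highest Reln group. It was detected in 15, 16 and 19 of 20 cells from the lowest to the highest Reln group, Lhx1 in 17, 14 and 15 and Lhx5 in 11, 13 and 15. Ebf3 stood at 874 and 649 CPM in the lowest group and at 572 and 331 CPM in the highest. Median depths of the groups were 4830, 8916 and 5937 UMIs from the lowest to the highest Reln in replicate 1 and 6411, 10137 and 8364 UMIs in replicate 2, so the lowest group was also the shallowest in both libraries. Whether depth or another cell type had a part in the lowest group was not tested.

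**Figure D2:**
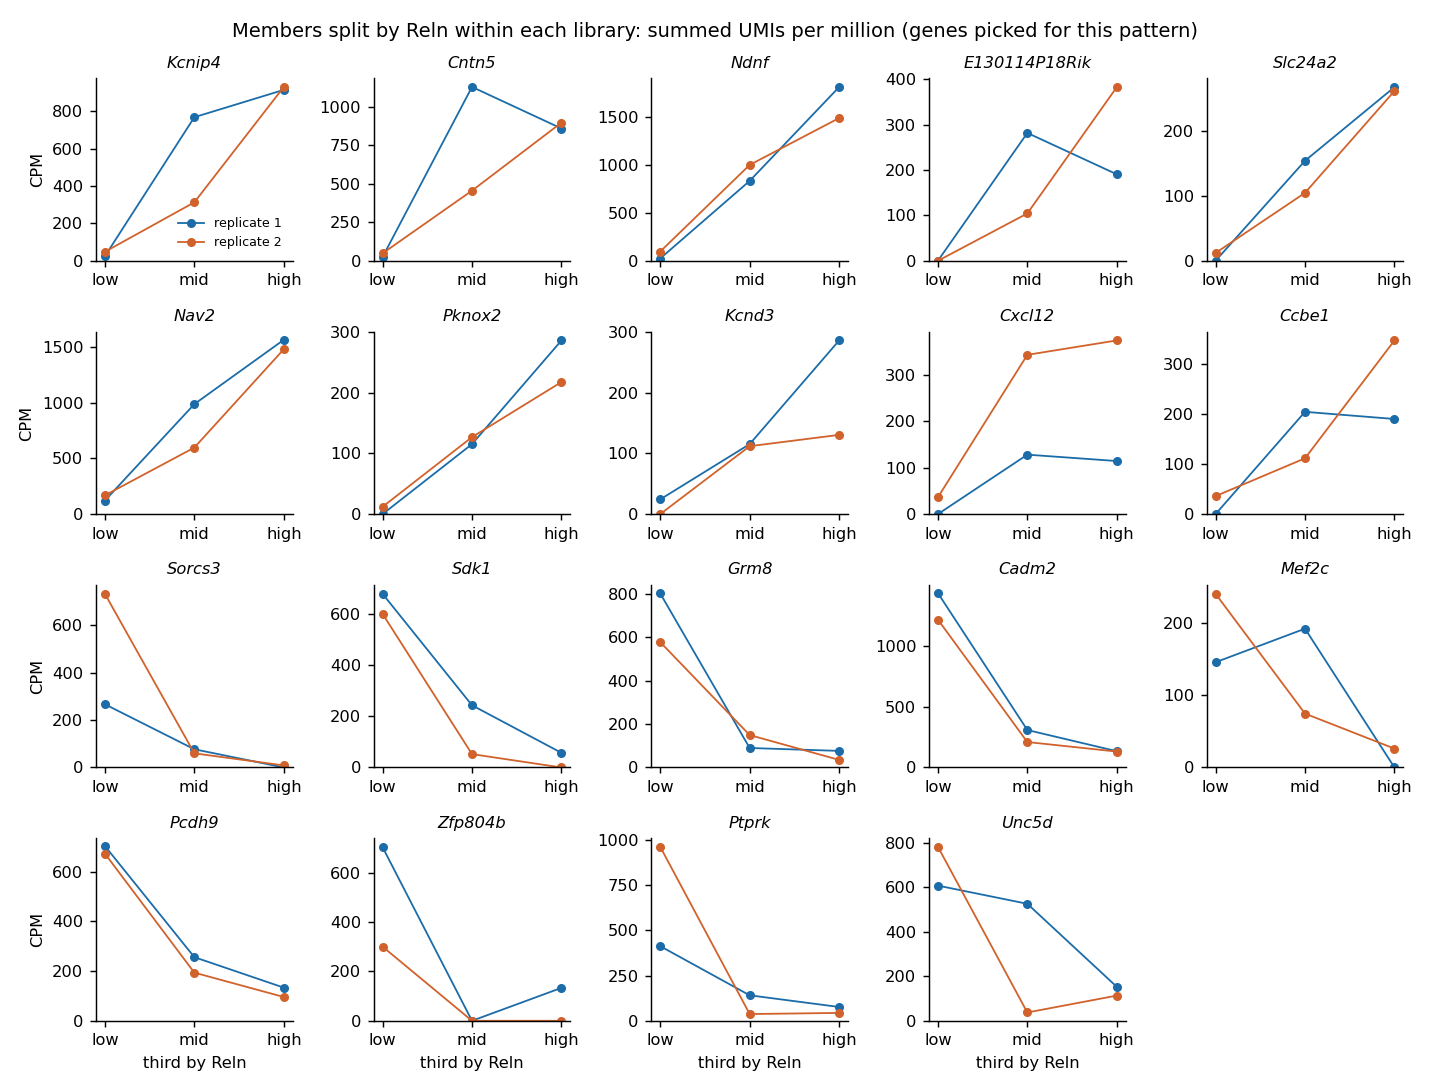
CPM of summed UMIs (y axis, linear, from 0) in the lowest, middle and highest Reln group of the chosen cells (x axis), in blue for replicate 1 and orange for replicate 2, for 19 genes picked because they show this pattern. The first 10 panels are genes that stood higher with high Reln, such as Ndnf (24.3 to 1811 CPM in replicate 1), and the last 9 are genes that stood higher with low Reln, such as Sdk1 (680 to 57.2 CPM in replicate 1).

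Against excitatory neurons, 2000 of 15255 genes differed (13.1%; edgeR's quasi-likelihood test on the class sums with library as a block, Benjamini-Hochberg adjusted p under 0.05). Of all genes tested, 900 (5.9%) were higher in the chosen cells and 1100 (7.21%) lower, so that 45.0% of the calls were higher, a split that turned to 54.8% with relative log expression (RLE) size factors and 61.3% with DESeq2. Against Reln-positive GABAergic cells, 1557 of 15257 genes differed (10.2%), of which 649 (4.25%) were higher and 908 (5.95%) lower. Here 41.7% of the calls were higher, 48.6% with RLE and 52.2% with DESeq2. The median log2 fold change over all genes was -0.14 and -0.11, and -0.03 and -0.05 with RLE, and the values below are relative to it. The comparisons share the chosen cells and are given side by side. The sums do not separate how many cells hold a transcript from how much each cell holds. The shares of cells with a UMI do so in part: Ndnf was found in 69.2% of the chosen cells and Ebf3 in 87.4% (means of both libraries), against 2.18% and 0.65% of excitatory neurons gated without regard to Reln.

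Ebf3, Car10 and Ndnf were among the 10 genes with the largest called differences from excitatory neurons. Ebf3 was at 518 and 352 CPM in the chosen cells and at 0.929 and 0.668 CPM in excitatory neurons (log2 fold change 8.79 ± 0.29 SE, adjusted p = 3.15e-21). Car10 was at 687 and 563 CPM against 1.55 and 0.501 CPM (9.08 ± 0.31, adjusted p = 2.17e-21). Ndnf was at 938 and 942 CPM against 5.03 and 5.06 CPM (7.30 ± 0.17, adjusted p = 5.91e-26). In each of these genes both libraries of the chosen cells lay above both libraries of the other class, with a gap far wider than the spread between libraries. By the same naming rule, Ebf2 (8.37 ± 0.71), the heparan sulfate sulfotransferase gene Ndst4 (8.11 ± 0.41), the small nucleolar RNA host gene Snhg11 (7.93 ± 0.25) and Thsd7b, a thrombospondin type 1 domain gene (6.97 ± 0.18), were higher, as were the noncoding genes Gm10475 (9.58 ± 0.49), Gm27199 (8.51 ± 0.45) and Lhx1os (9.18 ± 0.61). Lhx1os, chr11:84525660-84535831, lies beside Lhx1, chr11:84517975-84525534, on which the rule rests, and Gm27199, chr5:120419656-120431767, lies next to Lhx5, chr5:120431886-120441457, and both thus lie beside genes that the rule read.

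In the other direction, the 10 genes with the largest called differences included a pair of POU domain factors. Pou3f3 was at 17.5 and 21.1 CPM against 423 and 395 CPM in excitatory neurons (-4.57 ± 0.29), and Pou3f1 was lower too (-4.74 ± 0.37). Adamtsl3 had no UMI in the chosen cells against 54.6 and 49.2 CPM, thus at least 8.72-fold lower against a floor of 3 counts over the class. Further genes named by the rule rested on 1 or 2 UMIs in the chosen cells: Bmpr1b, a BMP receptor, had 1 UMI (66.2-fold lower, counting interval 11.9 to 2617), Gm29260 had 2 (53.3-fold, 14.8 to 440.5), the bicarbonate cotransporter Slc4a4 2 (25.8-fold, 7.14 to 213), Adamts18 1 (25-fold, 4.49 to 989), Gm2164 2 (19.5-fold, 5.38 to 161) and the RNA-binding protein gene Rbm24 2 (17.4-fold, 4.8 to 143).

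Against Reln-positive GABAergic cells, Ndnf was higher by 6.81 ± 0.25 on the log2 scale (5.33 and 9.42 CPM in the GABAergic cells, adjusted p = 1.77e-19) and Nhlh2 by 5.93 ± 0.41 (326 and 406 CPM against 9.32 and 2.36 CPM, adjusted p = 8.29e-13). Ebf3 had 206 UMIs in the chosen cells and 1 in the GABAergic cells, a ratio of CPM of 654 (counting interval 116 to 25960). Unc5b, a netrin receptor, and Ebf2 had no UMI in the GABAergic cells and were at least 39.5-fold and 34.6-fold higher. Ramp1, a partner gene of calcitonin-family receptors, had 63 UMIs against 2 (counting interval of the ratio 26.6 to 844). Fkbp9 (ratio 70.9, 23.2 to 352.5), Vmn2r1 (88.9, 14.7 to 3635), Lhx1os (152, 41 to 1276) and Gm27199 (131, 43.9 to 645) rested on 1 to 3 UMIs of the GABAergic cells. The genes named in the other direction had no UMI in the chosen cells: Cntnap5c was at least 54.55-fold lower, Etl4 at least 22.7-fold, the diacylglycerol kinase gene Dgkg at least 22.05-fold, and Cntnap3, Cacng3, Npas1, Nxph2, Mkx, Dlx5 and Gm45341 at least 10.1-fold to 15.1-fold. Npas1 and Dlx5 are transcription factor genes of GABAergic neurons.

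**Figure D3:**
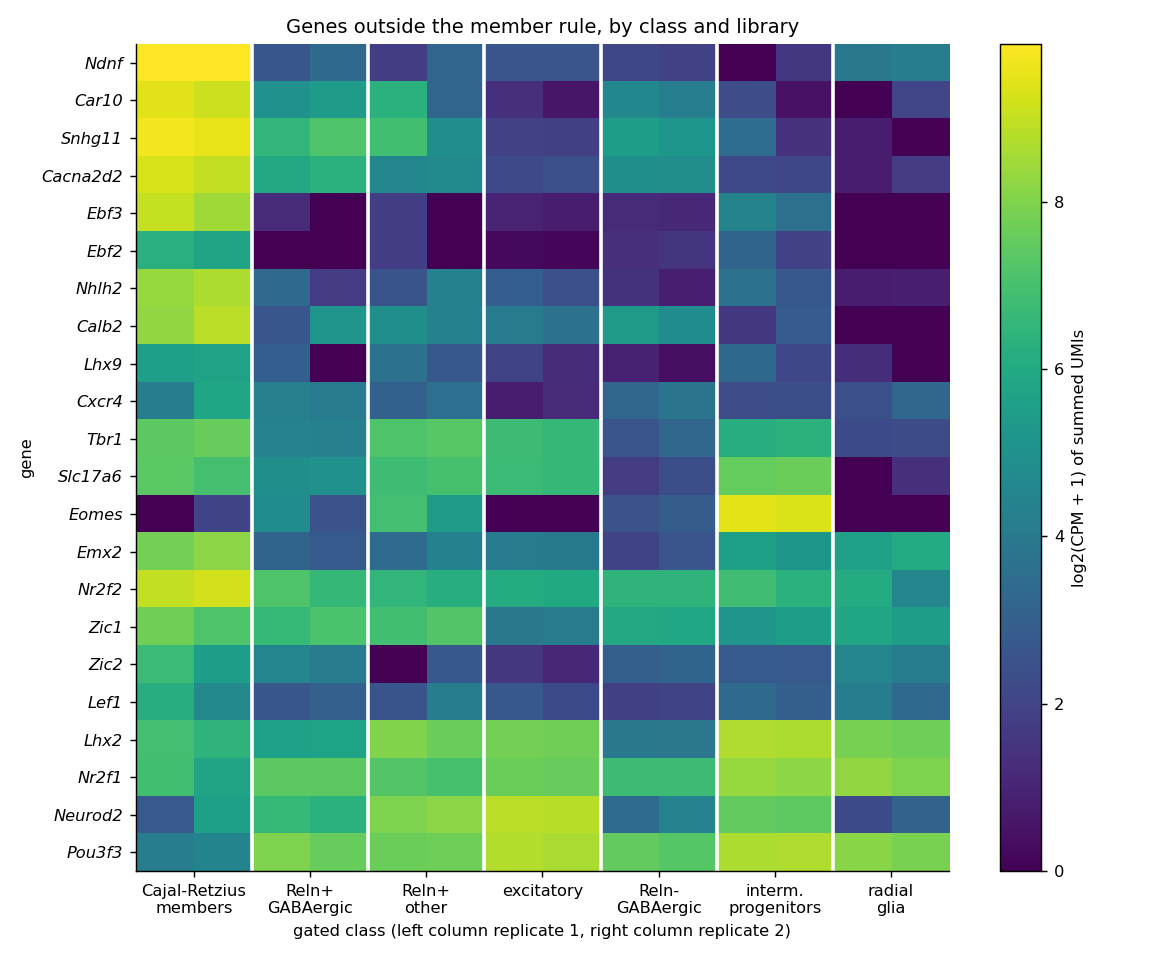
Colour gives log2(CPM + 1) of the summed UMIs for 22 genes that did not choose the cells (y axis) in the 7 gated classes (x axis), with replicate 1 in the left and replicate 2 in the right column of each class. Ndnf (938 and 942 CPM), Ebf3 and Nhlh2 stand high in both columns of the chosen cells, and Pou3f3 stands lower there (17.5 and 21.1 CPM) than in excitatory neurons (423 and 395 CPM).

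Of the 16 literature markers, 14 could be tested against excitatory neurons. There, 12 were higher and none lower, and Eomes, a gate gene of that class, was not counted. Their median log2 fold change was 5.49 (5.91 with genes at 0 set to their bound), beside -0.14 over all genes. No member of the list was lower at an unadjusted p under 0.05 or with DESeq2 either. Against Reln-positive GABAergic cells, 11 of 15 were higher and none lower (2 at an unadjusted p under 0.05 and 0 with DESeq2), with a median of 3.10 (3.51 with bounds). The list was drawn up with earlier results of these data known. Over all genes, 5.9% were higher and 7.21% lower than in excitatory neurons, and 4.25% higher and 5.95% lower than in Reln-positive GABAergic cells. These shares are the background of every list count here and below.

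Calb2 was at 309 and 464 CPM and was higher by 4.67 ± 0.26 against excitatory neurons and by 4.16 ± 0.35 against GABAergic cells. Cacna2d2 was higher by 6.88 ± 0.18 and 2.82 ± 0.18, and Lhx9, a LIM homeodomain gene, by 4.45 ± 0.59 and 4.02 ± 0.77. Tbr1, a T-box factor of early-born glutamatergic neurons, was at 169 and 193 CPM, against 107 and 95.1 CPM in excitatory neurons (0.64 ± 0.19, adjusted p = 0.0207) and 20 and 18.9 CPM in GABAergic cells (3.10 ± 0.30). Slc17a6, the vesicular glutamate transporter 2 gene, was at 163 and 123 CPM, against 104 and 95.1 CPM in excitatory neurons (0.24 ± 0.21, adjusted p = 0.549, edgeR) and 29.3 and 30.6 CPM in GABAergic cells (2.05 ± 0.30). Cxcr4, the receptor of Cxcl12, was at 17.5 and 57.2 CPM, higher than in excitatory neurons (5.07 ± 0.55) but with a difference of 1.05 ± 0.50 from GABAergic cells that did not pass (adjusted p = 0.213). Ebf1 was higher than in excitatory neurons (2.19 ± 0.45) and at -0.85 ± 0.40 against GABAergic cells (adjusted p = 0.209). Nhlh1 rested on 3 UMIs.

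Factors that pattern the pallium and the hem differed in both directions. Of 18 tested against excitatory neurons, 10 were higher and 4 lower (median 2.16), and against GABAergic cells 6 were higher and 2 lower (median -0.17, but 0.02 with genes at or under the floor set to their bound or left out). Emx2, a homeobox gene of the medial pallium, was at 227 and 286 CPM against 15.9 and 15 CPM in excitatory neurons (3.87 ± 0.22) and 7.99 and 5.89 CPM in GABAergic cells (5.11 ± 0.35). Its paralogue Emx1 was at 0 and 12 CPM, lower than in excitatory neurons (-2.63 ± 0.57). In Emx2 both libraries of the chosen cells lay clear of both libraries of either class.

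The orphan nuclear receptors Nr2f2 and Nr2f1 went opposite ways. Nr2f2 was at 501 and 584 CPM against 67.2 and 63.3 CPM in excitatory neurons (2.88 ± 0.19) and 141 and 94.2 CPM in GABAergic cells (2.13 ± 0.23). Nr2f1 was at 116.5 and 54.2 CPM and was lower in both comparisons (-1.57 ± 0.23 and -1.25 ± 0.26). Among the Zic genes, zinc finger factors of the septum and hem, Zic2 (5.21 ± 0.48 and 1.72 ± 0.45) and Zic5 (5.39 ± 0.50 and 1.92 ± 0.48) were higher in both. Zic1 (3.24 ± 0.25) and Zic4 (4.44 ± 0.37) were higher than in excitatory neurons, and their differences from GABAergic cells did not pass (0.37 ± 0.23 for Zic1 and -0.40 ± 0.28 for Zic4). Lef1, a transcriptional effector of Wnt signalling, was higher in both (2.98 ± 0.52 and 2.58 ± 0.63), as was Dmrta2 (2.49 ± 0.39 and 3.36 ± 0.56). Lhx2, a selector of cortical over hem identity, was lower than in excitatory neurons (-1.36 ± 0.20).

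Of 13 genes of LIM cofactors and the p53 family, 1 was higher and 5 lower than in excitatory neurons, and 1 higher and 3 lower than in GABAergic cells (medians -0.63 and -0.61). Over all genes 5.9% and 4.25% were higher, so 1 of 13 is near the background. The higher one in both was Cdkn1a, a cell cycle inhibitor and p53-family target (3.59 ± 0.59 and 2.61 ± 0.70), at 23.3 and 45.2 CPM. Ldb1, the cofactor that bridges LIM homeodomain proteins, was at 52.4 and 27.1 CPM against 56.3 and 56.7 CPM (-0.88 ± 0.32, adjusted p = 0.0639). Its relative Ldb2 was lower in both (-3.73 ± 0.35 and -2.27 ± 0.45), and Lmo3, a LIM-only gene, too (-1.24 ± 0.39 and -2.31 ± 0.38). Trp53 was lower than in excitatory neurons (-1.70 ± 0.42).

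Of 19 cortical projection neuron factors tested against excitatory neurons, 16 were lower and 0 higher (0 at an unadjusted p under 0.05 and 0 with DESeq2), with a median of -2.64. Cux2, an upper-layer homeobox gene (-2.82 ± 0.29), Mef2c (-3.39 ± 0.22) and Mn1 (-3.43 ± 0.34) were examples, whereas Nfia and Tle4 did not pass. Against GABAergic cells 11 of 20 were lower and 2 higher (Bhlhe22 and Nfia). The summed level of the list was 4135 and 4025 CPM in the chosen cells and 10330 and 9771 CPM in excitatory neurons. This sum covers all 20 genes, among them Neurod6, which the gate of excitatory neurons required, so the gate fixed part of the gap. A Neurod6 UMI was found in 15 of the 60 cells and a Neurod2 UMI in 8. For Neurod6 this was 33.3% and 20.5% of the chosen cells, beside 20.3% and 25.3% of the erythroid cells. For Neurod2 it was 4.76% and 17.9%, beside 4.69% and 16.7%. The erythroid cells were shallower, at medians of 3237 and 3761 UMIs against 5115 and 8364. Whether the chosen cells themselves expressed these genes above that background was not tested. Leaving out the 15 cells with Neurod6 left 1715 and 1462 calls, of which 1530 and 1266 were shared with the calls given above.

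Of 15 GABAergic markers, none passed against excitatory neurons in either direction (edgeR; 1 higher and 0 lower at an unadjusted p under 0.05, and 1 higher with DESeq2), and 14 were lower than in Reln-positive GABAergic cells (median -4.42, -4.0 with bounds). Their summed level was 256 and 144.5 CPM in the chosen cells, 119 and 131 CPM in excitatory neurons and 8865 and 9170 CPM in Reln-positive GABAergic cells, with 5 and 1 of the 15 at 0 in the chosen cells. Because the rule barred Gad1 and Gad2, this does not stand free of it. Of 13 radial glia and progenitor markers, 2 were higher and 3 lower than in excitatory neurons. The higher ones were Gadd45g, a stress- and differentiation-linked gene (2.84 ± 0.37), at 52.4 and 166 CPM, and Pax6 (1.41 ± 0.43), and the summed level was 408 and 750 CPM against 1118 and 1261 CPM. Of 15 markers of vessels, blood, microglia and meninges, 1 was higher and 3 lower. Over all genes 5.9% were higher, so 1 of 15 is near the background. Rgs5, a pericyte gene, was the higher one, at 52.4 and 33.1 CPM against 3.56 and 3.73 CPM (3.24 ± 0.78), while Pdgfrb, another pericyte gene, had no UMI. The summed level of that list was 483 and 602 CPM against 1273 and 2491 CPM, with 7 and 10 of the 15 at 0.

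**Figure D4:**
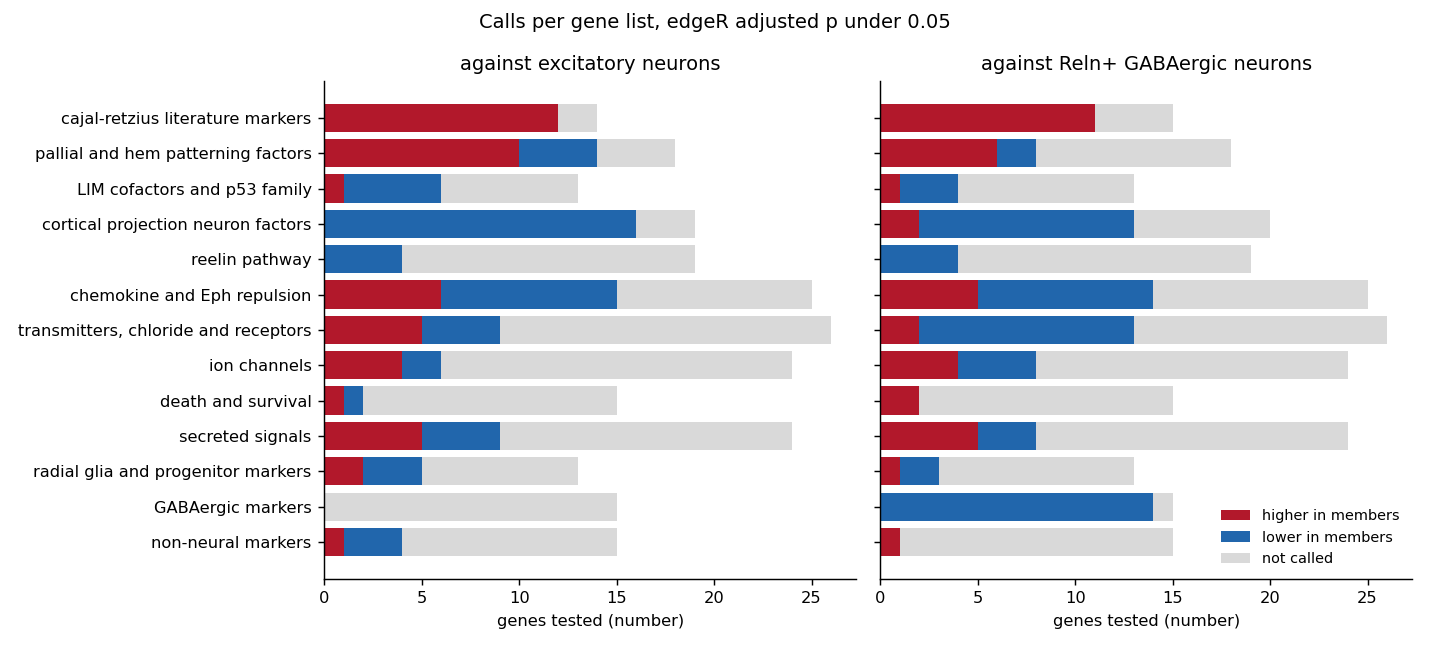
Bars give, for each of 13 gene lists (y axis), the number of genes tested (x axis), split into higher in the chosen cells (red), lower (blue) and not called (grey), against excitatory neurons on the left and Reln-positive GABAergic cells on the right. The literature markers hold 12 higher and 0 lower calls on the left, and the GABAergic markers hold 14 lower calls on the right.

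In the pathway that reads reelin, 0 of 19 genes were higher and 4 were lower in each comparison (edgeR; 1 and 0 higher at an unadjusted p under 0.05, and 0 and 0 with DESeq2), with medians of -0.14 and -0.10. Over all genes 5.9% and 4.25% were higher, so 0 of 19 is near the background. Dab1 was at 419 and 154 CPM, against 1234 and 1291 CPM in excitatory neurons (-2.53 ± 0.27) and 713 and 311 CPM in GABAergic cells (-1.09 ± 0.29). The chosen cells overlapped the GABAergic cells in Dab1, since replicate 1 of the former stood above replicate 2 of the latter. The receptor gene Vldlr was at 23.3 and 9.03 CPM (-1.50 ± 0.47 and -1.92 ± 0.48), and Lrp8 at 87.4 and 72.2 CPM, lower than in excitatory neurons (-0.89 ± 0.22) and at -0.39 ± 0.26 against GABAergic cells (adjusted p = 0.431). Cdh2, which encodes N-cadherin, was lower in both (-1.04 ± 0.17 and -0.91 ± 0.18), and Afdn passed against GABAergic cells (-0.87 ± 0.19) but not against excitatory neurons (-0.50 ± 0.18, adjusted p = 0.0583). The other members, among them the kinase genes Fyn and Src, did not pass.

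Guidance genes were split. Of 25 genes of chemokine, Eph, semaphorin and netrin signalling, 6 were higher and 9 lower than in excitatory neurons, and 5 higher and 9 lower than in GABAergic cells (medians -0.51 and -0.48). Cxcl12 was at 93.2 and 277 CPM against 13.8 and 15.5 CPM (3.53 ± 0.33) and 14.7 and 3.53 CPM (4.36 ± 0.50). Replicate 2 stood above replicate 1, and both stood above both libraries of the other classes. Sema3e, a semaphorin, and its receptor gene Plxnd1 were both higher in both comparisons (4.35 ± 0.39 and 4.04 ± 0.52 for Sema3e, 3.83 ± 0.55 and 4.14 ± 0.78 for Plxnd1). Of the netrin receptors, Unc5b (5.05 ± 0.53 against excitatory neurons) and Unc5c (1.16 ± 0.21 and 1.55 ± 0.25) were higher and Unc5d lower (-2.29 ± 0.20 and -1.07 ± 0.21). The Eph receptors Epha4 (-3.47 ± 0.35 and -3.25 ± 0.38) and Epha5 (-2.96 ± 0.22 and -2.92 ± 0.22) and the ligand Efnb2 (-1.63 ± 0.21 and -1.03 ± 0.24) were lower in both. Ackr3, a scavenging receptor of Cxcl12, had 1 UMI in the chosen cells and 154 in the GABAergic cells (48.5-fold lower, counting interval 8.58 to 1928).

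**Figure D5:**
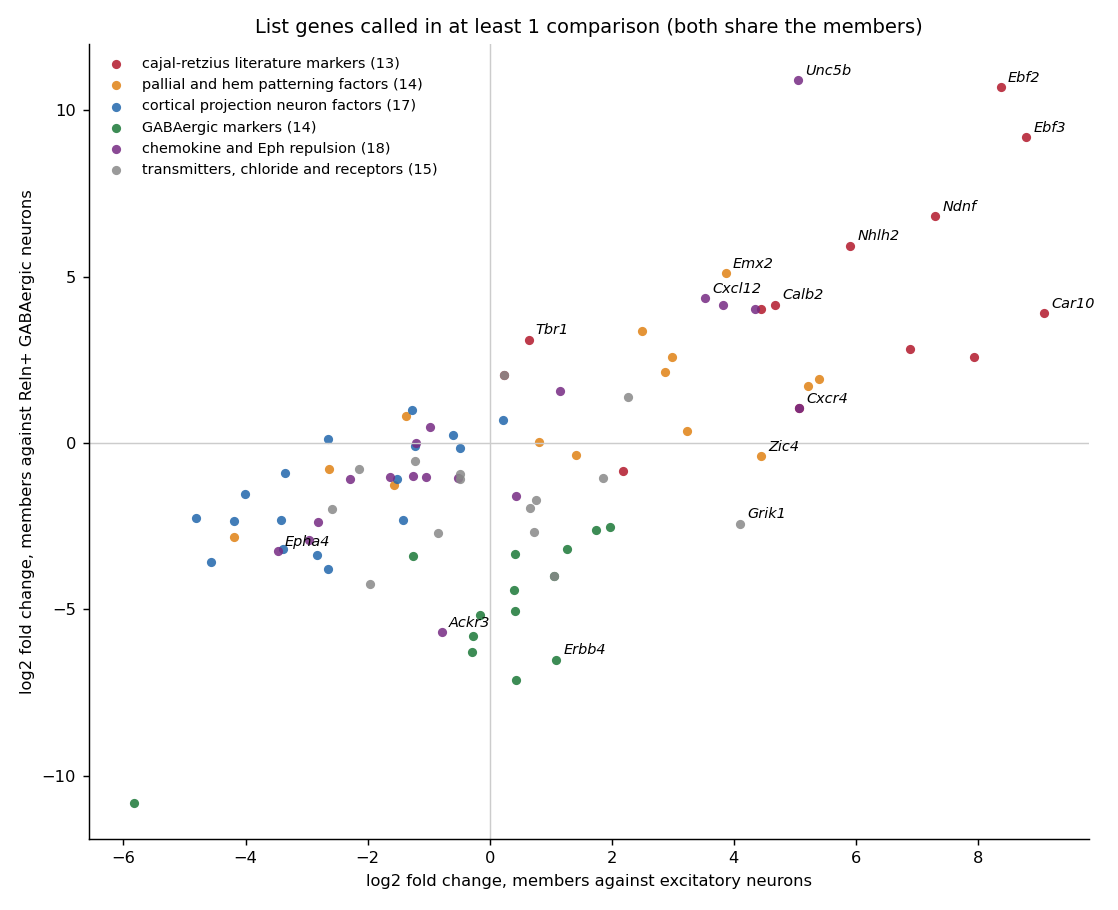
Each point is a gene of 6 lists that was called in at least 1 comparison, with the fitted log2 fold change against excitatory neurons on the x axis and against Reln-positive GABAergic cells on the y axis. Both axes share the chosen cells, and values of genes at 0 in 1 class, such as Unc5b, Ebf2 and Dlx5, are fitted values and no bounds. Ebf3 and Ndnf lie high on both axes, whereas Grik1 lies high on the x axis (4.10) and low on the y axis (-2.42).

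Some receptor genes placed the chosen cells between the classes. Of 26 transmitter genes, 5 were higher and 4 lower than in excitatory neurons, and 2 higher and 11 lower than in GABAergic cells (medians 0.04 and -1.07). Grik1, a kainate receptor subunit gene, was at 105 and 120 CPM, against 6.04 and 5.4 CPM in excitatory neurons (4.10 ± 0.38) and 533 and 568 CPM in GABAergic cells (-2.42 ± 0.24). The AMPA receptor gene Gria1 was likewise higher than the former (0.73 ± 0.19) and lower than the latter (-2.68 ± 0.17), whereas Gria2 was lower than both (-2.15 ± 0.18 and -0.77 ± 0.19). Gabrg3, a GABA-A receptor subunit gene, was higher than both (2.27 ± 0.22 and 1.40 ± 0.25). The chloride transporter genes Slc12a2 and Slc12a5, which set how a cell responds to GABA, passed in neither comparison. Of 24 ion channel genes, 4 were higher and 2 lower than in excitatory neurons and 4 were higher and 4 lower than in GABAergic cells (medians 0.07 and -0.27). Over all genes 7.21% were lower than in excitatory neurons, so 2 of 24 is near the background. Cacna1a, the P/Q-type calcium channel gene (1.24 ± 0.20 and 0.70 ± 0.22), and the sodium channel beta subunit gene Scn3b (1.04 ± 0.26 and 0.92 ± 0.30) were higher in both, and Kcnq3 (-3.17 ± 0.26 and -1.47 ± 0.31) and Scn1a (-2.20 ± 0.48 and -2.37 ± 0.52) were lower in both.

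Of 15 genes of cell death and survival, 1 was higher and 1 lower than in excitatory neurons and 2 were higher than in GABAergic cells (medians 0.20 and -0.24, the latter 0.02 with bounds). Against excitatory neurons these counts are near those over all genes (5.9% higher and 7.21% lower). Diablo, which antagonizes inhibitors of apoptosis, was at 99 and 193 CPM against 20.7 and 24.1 CPM (2.59 ± 0.25) and 24 and 18.9 CPM (2.75 ± 0.32). Cycs, cytochrome c, was higher than in GABAergic cells (1.02 ± 0.24). Bax, which was 1 of the 15, stood at 0.20 ± 0.16 and 0.49 ± 0.18 and did not pass.

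Of 24 genes listed as secreted signals, 5 were higher and 4 lower than in excitatory neurons, and 5 higher and 3 lower than in GABAergic cells (medians 0.00 and -0.24, or 0.64 and 0.06 with bounds), with Ndnf among the higher ones of both. Wnt7b was at 151 and 190 CPM (1.37 ± 0.21 and 3.54 ± 0.33), and Dkk3, a dickkopf family gene, at 34.9 and 57.2 CPM (2.58 ± 0.46 and 3.77 ± 0.69). Rspo3, which potentiates Wnt signalling, was at 309 and 108 CPM, higher than in GABAergic cells (3.44 ± 0.53) and at 0.64 ± 0.32 against excitatory neurons (adjusted p = 0.227). Nrg1, a neuregulin gene, was at 1706 and 1773 CPM, higher than in GABAergic cells (1.21 ± 0.18) and at -0.06 ± 0.17 against excitatory neurons (adjusted p = 0.882). Fgf13 (-2.20 ± 0.26 and -3.35 ± 0.25) and Sema3a (-1.31 ± 0.25 and -1.97 ± 0.25) were lower in both. The counts of lower genes thus include Fgf13, although it encodes an intracellular protein and not a secreted signal. Ntf3, neurotrophin 3, had no UMI in the chosen cells against 20.5 and 24.3 CPM in excitatory neurons.

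Chosen cells with and without a Trp73 UMI were compared last. The 50 cells with one (18 and 32) gave 135720 and 287347 UMIs, and the 10 without (3 and 7) gave 35982 and 44824. Median depths were 4883 and 9111 UMIs with Trp73 and 11945 and 5283 without, so the deeper group differed between the libraries. The rule itself read Trp73, cells without it entered through Lhx1 or Lhx5, and the smaller sums rest on 3 and 7 cells, so the calls describe these cells. Of 2919 genes, 28 differed (0.959%; edgeR as above, 210 at an unadjusted p under 0.05), 17 higher with Trp73 (0.582%) and 11 lower (0.377%). With DESeq2 3 genes passed, all among the 28, and without the top doublet scores 15 genes passed, of which 10 were among the 28. The 3 genes called by DESeq2 too were Pcdh11x, a protocadherin gene, Nrg1 and Nrxn3, a neurexin gene.

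Pcdh11x was at 1009 and 1298 CPM with Trp73 and 139 and 22.3 CPM without. It passed the count filter only through the larger group and is not read as a difference. Nrg1 was at 2063 and 2005 CPM against 361 and 290 CPM (2.54 ± 0.49, adjusted p = 1.23e-04). Nrxn3 was at 66.3 and 184 CPM against 528 and 1963 CPM (-3.35 ± 0.51, adjusted p = 1.41e-07), and 7 of the 10 cells without Trp73 held it. In these genes both libraries of one group lay above both of the other. Spock1, Zfp804b, Dok6 and Ramp1 had no UMI in the cells without Trp73 and Gm12296 had 1, so that they too passed the count filter only through the larger group and are not read as differences. The 17 genes called higher with Trp73 include these and Pcdh11x. On the other side, Tmem158 (-2.83 ± 0.49), Cdkn1c (-2.78 ± 0.57), Grik2 (-2.52 ± 0.50) and Gm26871 (-2.34 ± 0.65) were lower with Trp73 by the test. A single one of the 10 cells held 57.1% of their UMIs of Tmem158, 61.7% of Grik2, 58.8% of Gm26871 and 45.8% of Nrxn3. In Cdkn1c, a cell cycle inhibitor gene, 1 cell of replicate 2 held 91.8% of the UMIs of the 10 cells, and replicate 1 stood at 110.5 and 111 CPM. In Tafa2, 1 cell held 96.4%, and the libraries went opposite ways. Ndnf (0.81 ± 0.46, adjusted p = 0.837), Ebf3 (1.37 ± 0.53, adjusted p = 0.375), Nhlh2 and Calb2 did not pass.

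Of the 454 genes higher in both comparisons with other classes, 352 had a promoter window. TAATTA occurred in 12 of these (3.41%), beside 3.54% of all tested genes with a window. CCCNNGGG occurred in 81 (23.0%, beside 21.0%) and CAGCTG in 74 (21.0%, beside 18.3%). These shares are given as a description, and nothing follows from them for the factors named above.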

How the data were processed

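Single-cell suspensions of 2 WT libraries were processed by the authors with Cell Ranger (7.0.0 in the submitters' processing notes, 7.1.0 in the file headers) against mm10 (the UCSC name of GRCm38), and the filtered tables of UMI counts per gene and barcode were deposited. The lowest barcode held 500 UMIs. Everything else was computed from these deposited counts. The chosen cells, the gene lists and the tests were set with earlier results of these data known.

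Barcodes with 1500 to 60000 UMIs and under 10% mitochondrial UMIs were kept (5966 and 10247, median 5706 and 4938 UMIs). Besides the chosen cells, 6 classes were gated, without clustering. Reln-negative GABAergic cells held at least 2 Gad UMIs without Reln, Mki67, Top2a or Neurod6. Intermediate progenitors held at least 2 Eomes UMIs without Reln, Gad1, Gad2, Mki67 or Top2a. Radial glia held at least 2 Slc1a3 UMIs and at least 1 Pax6 UMI without Reln, Gad1, Gad2, Neurod6 or Eomes. The other gates stand in the results. UMIs were summed per class and library (14 sums), genes that reached 10 counts in 2 or more sums were kept, and edgeR's quasi-likelihood test was fitted with class and library as terms (Benjamini-Hochberg adjusted p under 0.05). Gate genes were left out of every count. The split by Trp73 used 4 sums of its own.

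The genes named from the fits were the 10 with the largest change in each direction among called genes with the same direction in both libraries and at least 50 CPM in the higher class, without gate, mitochondrial, ribosomal, globin or sex-linked genes (5 in each direction for the Trp73 split), besides the listed genes. The rule for the Reln groups (at least 50 UMIs, a pseudocount of 20 CPM, 10 genes each way) was chosen after the values were seen. A count of 0 was given a floor of 3 counts. Intervals of shares are 95% Clopper-Pearson intervals. Doublet scores came from Scrublet with its default expected rate. The top-scoring cells of a library were marked as doublets, as many as 0.8% of its kept cells per 1000 deposited barcodes. These were removed only as an alternative. Cells were thinned to 1500 UMIs to compare shares. R 4.3.3, edgeR 4.0.16, DESeq2 1.42.0, scanpy 1.11.5, numpy 2.4.6, scipy 1.17.1 and pandas 2.3.3 were used, and the tests were first run on simulated data. Gene positions came from RefSeq, with 74 of 76 genes matched by gene symbol.
Results for a few of the genes that these rules name are not reported here.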

Additional observations from a re-analysis of the deposited data

How the results depend on the processing

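For the 40 genes named from the comparisons with excitatory neurons and with Reln-positive GABAergic cells, direction and call were the same in every alternative fit. They were picked as the largest called differences, and the alternatives reuse the same libraries, so this agreement says little about stability. The 480 values compared also include ratios with a library left out, which carry no test. Their direction was fixed in advance, because a gene was named only if both libraries went the same way, so they say nothing about stability. The numbers of calls ran from 1378 (only the compared classes, 1356 of them shared with the 2000) to 2152 against excitatory neurons and from 1412 to 1672 against GABAergic cells. The Trp73 split was less stable, with 3 calls by DESeq2 and 15 without the top doublet scores, against 28 in the fit reported, 19 without the library block and 39 without the low-count filter. The mean share of chosen cells, 0.366%, became 0.408% with at least 1 Reln UMI, 0.33% with at least 4, 0.441% with at least 3000 UMIs, 0.316% with a mitochondrial limit of 5% and 0.269% without cells that held Neurod6. The limit of 5% left 28 cells, with 0.228% in replicate 1 (6 cells) and 0.404% in replicate 2 (22 cells). Under the rule as reported, single libraries gave 0.352% and 0.381%. Thinning to 1500 UMIs brought the share of chosen cells with a UMI from 69.2% to 53.1% for Ndnf and from 87.4% to 61.2% for Ebf3, which shows how far detection per cell depended on depth. With 21 and 39 cells, a gene at 0 in the chosen cells may still be present at up to 5.95 CPM. Every class came from both libraries and library was a block in the fits reported, which pairs the classes within libraries. Without that block the calls were 1826 and 1459.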
